A study of Mus musculus with 8 samples.

Results

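Long intergenic noncoding RNAs (lincRNAs) are transcripts from between protein-coding genes that are spliced and polyadenylated like mRNA but have no established protein product. The m6A peaks described here are the peaks whose gene the authors' annotation classes as lincRNA in the deposited peak lists, without the nuclear RNAs Malat1 and Neat1. They numbered 1013 of 35697 peaks and lay in 403 of the 8733 genes with a peak; Malat1 and Neat1 held another 25 peaks. The study profiled N6-methyladenosine (m6A) by immunoprecipitation of fragmented total RNA and sequencing (MeRIP-seq) in spermatogenic cells from testes of C57BL/6 mice aged 12 weeks. The cells are labelled PA and RO, for the pachytene spermatocytes and round spermatids of the series title, and the mice were wild type (WT) or Alkbh5-/- (KO). Each genotype and stage had 1 input and 1 immunoprecipitated library, 8 in all, and each peak list comes from 1 such pair. How the cells were sorted and how many mice gave a library are not stated in the sources used here. Without replicates no difference below can be set against a spread between animals, no test was run, and every interval covers counting error only.

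The mark is written by a methyltransferase complex that acts mostly on adenosines of the GGAC kind, read by YTH-domain proteins and removed by the demethylases ALKBH5 and FTO. In mRNA it is densest near the stop codon and in the last exon. The testis expresses more lincRNA genes than most tissues, many of them restricted to meiotic and postmeiotic germ cells, and Alkbh5 is known for its role in spermatogenesis. Most of the 403 genes have no known function: 168 carry a provisional symbol starting with Gm, 148 one ending in Rik and 67 a clone name, and 20 have another symbol. Of 219 that RefSeq holds under the same symbol and chromosome, 204 are long noncoding there, 9 are protein coding and 6 belong to pseudogene classes. The authors' class thus took in some genes that RefSeq treats otherwise, among them 4930571K23Rik, Scml1 and Gm46430.

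The input count table held all 403 genes, with library totals between 9921365 and 13147239 counts. Of these genes, 389 reached a CPM of 1 (counts scaled by TMM factors to a common library size) in at least 1 library and 221 reached 10 CPM, and 60 had a count of 0 in at least 1 library. Of the marker genes for other cell types, only those with a peak of their own could be named in the table, since the lists alone pair identifiers with symbols. The 9 of 15 round spermatid markers named there, such as Prm2 and Acrv1, summed to 355.3 CPM (WT PA), 681.3 (KO PA), 641.2 (WT RO) and 1178 (KO RO). The 4 of 14 pachytene markers, Sycp1, Sycp2, Mlh3 and Ybx2, summed to 2712, 1380, 2340 and 1590 CPM in the same order. Their sum was higher in both WT than in both KO libraries. By stage it was lower in RO than in PA within WT, but higher in RO within KO. The round spermatid sum was higher in RO than in PA within each genotype, yet higher in KO PA than in WT RO. The stages named below are those of the labels, and the purity of the cells was not tested. Somatic markers were present in every library: 4 of 10 for Sertoli cells summed to between 172.1 and 318.1 CPM, 4 of 6 for peritubular myoid and endothelial cells to between 181.4 and 365.6, and 2 of 6 for Leydig cells to between 16.7 and 136.2. The part of these differences in cell makeup in the lincRNA values was not tested, and fewer cells of a type cannot be told apart from less RNA per cell in such samples. Alkbh5 itself has no peak and hence no symbol in the files, so the genotype labels were not checked on it.

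Sequence could be read where a peak reached into the window from 250 bases before to 50 bases after a RefSeq transcript start (GRCm38.p6, the same assembly as the mm10 of the submitters' processing notes). That was so for 64 peaks of 44 genes. The following stretches are shown because they are the longest within windows of noncoding genes, and they let the bases under a lincRNA peak be seen. Each is written 5′ to 3′ on the strand of the peak, and capitals mark GGAC, the core of the m6A consensus.
Gm21269, KO PA list, chr7:73825678-73825887, plus strand: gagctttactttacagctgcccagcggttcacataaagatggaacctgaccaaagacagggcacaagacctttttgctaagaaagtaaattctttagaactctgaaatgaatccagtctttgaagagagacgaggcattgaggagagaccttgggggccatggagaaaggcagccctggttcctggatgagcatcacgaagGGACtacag
5330439K02Rik, KO PA list, chr15:100468424-100468602, minus strand: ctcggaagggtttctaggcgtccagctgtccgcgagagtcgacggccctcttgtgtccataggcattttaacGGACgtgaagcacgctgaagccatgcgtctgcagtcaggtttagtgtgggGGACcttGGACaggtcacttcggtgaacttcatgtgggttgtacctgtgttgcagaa
1810019N24Rik, KO PA list, chr7:12949817-12949997, minus strand: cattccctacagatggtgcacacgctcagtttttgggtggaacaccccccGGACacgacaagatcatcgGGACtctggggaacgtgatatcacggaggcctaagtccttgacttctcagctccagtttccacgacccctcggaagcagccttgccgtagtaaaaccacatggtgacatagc
AC160336.1, KO RO list, chr14:44583083-44583331, minus strand: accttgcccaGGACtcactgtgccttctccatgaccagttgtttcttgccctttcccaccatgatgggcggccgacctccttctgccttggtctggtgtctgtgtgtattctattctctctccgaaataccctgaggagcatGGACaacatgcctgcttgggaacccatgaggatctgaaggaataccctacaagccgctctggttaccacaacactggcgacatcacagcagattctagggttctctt
4933440M02Rik, WT RO list, chr7:125332809-125333088, minus strand: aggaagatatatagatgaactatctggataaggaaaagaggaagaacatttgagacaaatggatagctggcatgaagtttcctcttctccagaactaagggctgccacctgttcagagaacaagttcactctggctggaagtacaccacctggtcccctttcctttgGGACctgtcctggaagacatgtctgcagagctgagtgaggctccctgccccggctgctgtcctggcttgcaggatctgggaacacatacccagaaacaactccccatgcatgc

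The first 3 stretches are whole peaks, and the other two hold 249 of 331 and 280 of 508 bases of the peak. Of the 16 genes with a stretch of at least 100 bases, 11 had GGAC on the strand of the peak and 8 had it on the opposite strand. Among all 32851 windows, 41.1% held GGAC in their first 150 bases and 50.3% in their first 200, all upstream of the RefSeq start. The peak of 5330439K02Rik, which was called in both PA lists, holds the motif at 3 places in 179 bases, and at 3 places on the opposite strand. In 4933440M02Rik the WT RO list has 1 long peak whose stretch holds GGAC at 1 place, and at 3 places on the opposite strand. The KO PA list splits the same ground into several shorter peaks, with 2 stretches within the window, chr7:125332809-125332909 and chr7:125332969-125333088. Neither stretch holds the motif on the strand of the peak: its place falls between them. The first holds it at 1 place on the opposite strand.

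In 10 genes, D130017N08Rik and AY702103 among them, a peak began exactly at the RefSeq start of the same gene, and the peaks of 2210406O10Rik began 1 base inside it. The starts below are shown because the same first bases recur between lists or carry a high fold, the authors' measure of how far the antibody enriched a region over input.
D130017N08Rik, WT PA list, chr5:143758354-143758403, plus strand: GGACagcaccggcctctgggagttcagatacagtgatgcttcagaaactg
2210406O10Rik, WT PA list, chr5:36464805-36464853, minus strand: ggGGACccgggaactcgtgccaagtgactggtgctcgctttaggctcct
AY702103, WT RO list, chr17:50239208-50239257, plus strand: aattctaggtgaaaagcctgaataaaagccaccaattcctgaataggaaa

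In D130017N08Rik the peaks of all 4 lists started at the same base, chr5:143758354, and were between 240 and 299 bases wide. Their folds were 14.1 (WT PA), 20.2 (KO PA), 39 (WT RO) and 5.97 (KO RO). The gene's input counts were 1092, 836, 788 and 567 in that order. Its sequence opens with GGAC. The lists give peaks as exon blocks, so a peak that reaches an annotated start may be cut there. A shared start base thus need not be where the signal begins, and its tie to the motif was not tested. Peaks of 2210406O10Rik were called over its first bases in 3 of the 4 lists, with folds of 12.6 in WT PA, 16.4 in KO PA and 14.3 in KO RO. The AY702103 start lies under a WT RO peak of fold 71.3 and holds no GGAC in the bases shown. Of all windows, 16.1% hold the motif in their first 50 bases, which lie upstream of the RefSeq start. The share at the starts themselves was not computed, and a match is a description of letters, not a mapped site.

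LincRNA peaks were most numerous in WT round spermatids. The WT PA list held 190 in 144 genes, the KO PA list 240 in 190 genes, the WT RO list 356 in 272 genes and the KO RO list 227 in 184 genes. As a share of all peaks of a list they made up 3.78% for WT RO (95% Wilson interval 3.41 to 4.18) and 2.57% for KO RO (2.26 to 2.92), beside 2.53% for WT PA (2.2 to 2.91) and 2.42% for KO PA (2.13 to 2.74). The WT RO share stood above the other three, whose intervals overlap each other.

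**Figure D1:**
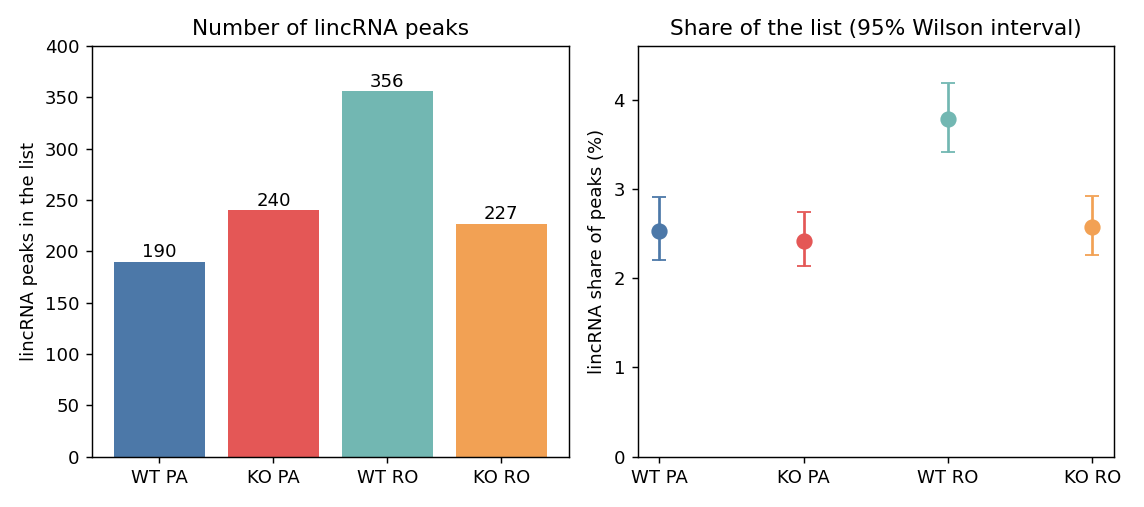
Left, bars show the number of lincRNA peaks in each list; right, points show their share of all peaks of the list in percent with 95% Wilson intervals. WT RO stands above the other lists on both axes, with 356 peaks and 3.78%.

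In round spermatids the KO list had 0.638 times as many lincRNA peaks as the WT list (exact 95% interval 0.537 to 0.755), against 0.951 times (0.923 to 0.98) for all other peaks. Antisense RNA peaks, another noncoding class, were close to lincRNA peaks in this: KO RO had 177 and WT RO 254, a ratio of 0.697 (0.572 to 0.848), and their share was also highest in WT RO, at 2.7% beside 1.92% (WT PA), 1.97% (KO PA) and 2% (KO RO). The lincRNA share was 1.21 percentage points lower in KO RO than in WT RO (Newcombe interval of KO minus WT, -1.72 to -0.706). In pachytene cells the KO list had 1.26 times as many lincRNA peaks as the WT list (1.04 to 1.54), and of other peaks there were 1.33 times as many; the lincRNA share differed by -0.116 points (-0.591 to 0.346). From PA to RO, lincRNA peaks numbered 1.87 times as many in WT (1.57 to 2.25), beyond the 1.24 times of other peaks and beside 1.76 times (1.43 to 2.18) for antisense RNA peaks. In KO they numbered 0.946 times as many (0.785 to 1.14), beside 0.889 for other peaks. Some lists give overlapping rows for 1 gene, as for the X-inactivation RNA Xist.

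The excess in WT RO held more weak calls. Of its lincRNA peaks, 21.3% missed a false discovery rate under 0.05, beside 11.6% of those of WT PA, 5.42% of KO PA and 5.29% of KO RO. Among other peaks these shares were 12.8%, 6.76%, 2.07% and 3.49% for WT RO, WT PA, KO PA and KO RO. Counting only peaks at a rate under 0.05, the KO over WT ratio in RO was 0.768 (0.64 to 0.92). The direction of the RO difference in lincRNA peak numbers was thus kept, with a smaller size. The same ratio for other peaks at that rate was not computed, and the 0.951 above is without that limit. WT RO loses more of its other peaks under the limit than KO RO does, 12.8% against 3.49%, so their ratio rises too. How much of the lincRNA difference from other peaks remains under it was not tested.

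LincRNA peaks were narrower than other peaks of the same list, as were antisense RNA peaks. Their median exonic width was 210 bp (WT PA), 211 (KO PA), 181 (WT RO) and 210 (KO RO), beside 240, 269, 238 and 241 bp for other peaks and 210.5, 235, 208 and 210 bp for antisense RNA peaks. Their median fold was 10.7, 11.7, 13 and 10.5 in that order of lists, beside 11.9, 13.2, 15.5 and 12.2 for other peaks and 10.5, 11.5, 13.5 and 10.5 for antisense RNA peaks. The intervals of the median fold of lincRNA and other peaks met or overlapped in every list. Peaks of fold 50 or more made up 8.71% of the lincRNA peaks of WT RO, against 15.2% of its other peaks, and 4.74%, 3.75% and 6.17% of those of WT PA, KO PA and KO RO, against 8.33%, 8.95% and 9.01%. The share of peaks over more than 1 exon block was 15.8%, 18.8%, 18.5% and 15% in the same order. In WT RO alone the interval of the difference from other peaks left out 0 (5.32 points, 1.56 to 9.74).

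About 50% of the lincRNA peaks could be placed along a RefSeq gene of the same symbol. Between 42.3% (KO PA) and 47.4% (KO RO) of those lay in the last 20% of the gene's span, against 49.3% to 52.3% for protein-coding peaks. The first 20% held between 15.4% (KO PA) and 22.7% (WT RO), against 10.9% to 11.9% for protein-coding peaks. The interval of the lincRNA share lay above that of protein-coding peaks in WT PA (12.5 to 28.3 against 10.3 to 11.8), WT RO (17.2 to 29.3 against 11.2 to 12.7) and KO RO (13.6 to 28 against 10.2 to 11.6), and the intervals overlapped in KO PA (10.1 to 22.9 against 11.2 to 12.6). By chromosome, lincRNA peaks were more frequent than other peaks on chromosome 10, with 10.1% against 4.73%, and on chromosome 13, with 8.49% against 3.88%. Chromosome 11 held 3.16% of them against 7.35% of other peaks and chromosome 19 0.592% against 3.04%. The X chromosome held 16 lincRNA peaks, 1.58%, against 2.17%. With neighbours joined at a distance of up to 200 kb, the densest group was 5 genes on chromosome 13, with 12 peaks over the lists. It spans chr13:59144672-59421194, from AC165260.1 on.

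LincRNA peaks recurred between lists less often than other peaks in all pairs of lists but KO PA in WT RO, where the interval of the difference held 0 (-4.74 points, -11.1 to 1.61). A peak was counted as shared when its exon blocks overlapped any peak of the other list by 1 bp or more on the same strand. Of the WT PA lincRNA peaks 61.6% (54.5 to 68.2) were shared with KO PA, against 80.2% of other peaks, a difference of -18.6 points (-25.7 to -11.9). Of the WT RO lincRNA peaks 30.9% (26.3 to 35.9) were shared with KO RO, against 56.8%, a difference of -25.9 points (-30.6 to -20.8). Read from the KO side, 47.5% of KO PA lincRNA peaks had a WT PA counterpart and 50.2% of KO RO peaks a WT RO counterpart. The highest sharing was between both KO lists: 67% (60.6 to 72.8) of KO RO lincRNA peaks overlapped a KO PA peak and 62.9% (56.6 to 68.8) of KO PA peaks a KO RO peak. Between both WT lists the shares were 56.3% of WT PA and 28.7% of WT RO peaks.

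**Figure D2:**
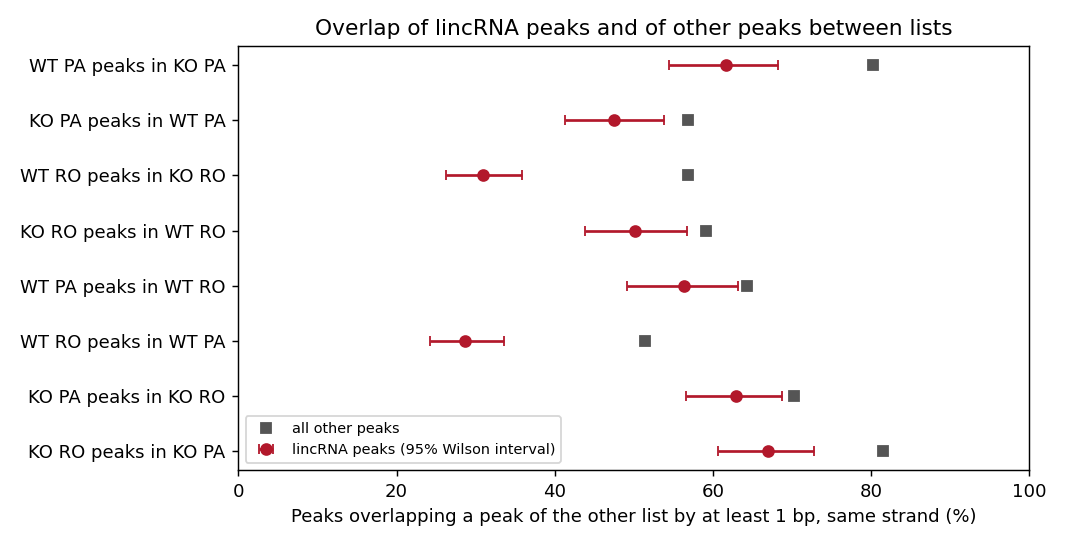
Each line is one direction of comparison; the red point is the percent of lincRNA peaks of the first list that overlap a peak of the second, with its 95% Wilson interval, and the grey square is the percent for all other peaks. The squares lie to the right of the points on every line, with the widest gap for WT RO peaks in KO RO (56.8% against 30.9%) and the narrowest for KO PA peaks in KO RO (70.2% against 62.9%).

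Shared peaks were the wider ones and missed the false discovery rate less often, among lincRNA peaks as among other peaks. Those of WT RO that overlapped a KO RO peak had a median fold of 20.2 and a median width of 269 bp, and 5.45% missed a false discovery rate under 0.05. The 246 without a KO RO counterpart had a median fold of 11.8 and a width of 180 bp, and 28.5% missed it. Other peaks of WT RO with and without a KO RO counterpart had folds of 21.5 and 12.1 and widths of 271 and 181 bp, and 3.96% and 24.4% missed it. For WT PA lincRNA peaks against KO PA the folds were close, 11.2 with and 10.5 without a counterpart, the widths were 236 and 180 bp, and 3.42% and 24.7% missed it.

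Merged over the lists, lincRNA peaks formed 535 regions. Peaks were joined through any overlap of exon blocks on the same strand, so the peaks of a region need not all overlap each other. Of these 298 (55.7%) were in 1 list only and 62 (11.6%) in all 4, against 42.9% and 23.9% of all peak regions. WT RO alone held 183 regions, 34.2%, against 18.9% of all peak regions. By gene, 119 of the 403 (29.5%) had peaks in WT RO alone and 60 (14.9%) in every list, against 14.3% and 34.4% of all genes with peaks. Both KO lists and no WT list held peaks of 28 genes, 6.95% beside 6.87% of all genes with peaks. Both WT lists and no KO list held those of 26, which is 6.45% against 2.32%.

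**Figure D3:**
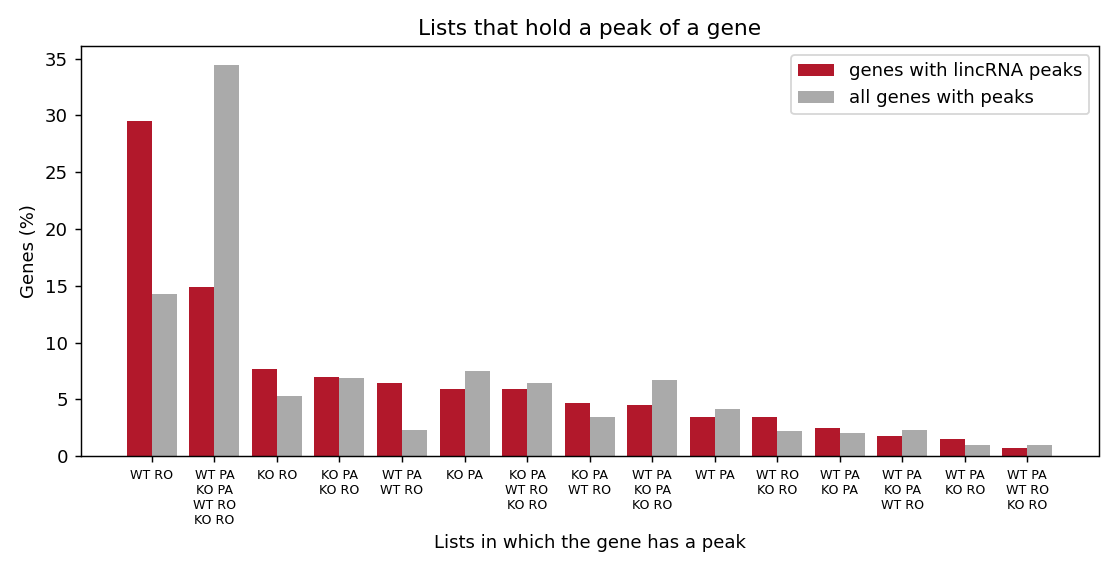
Bars give the percent of genes whose peaks lie in exactly the lists named under them, for the 403 genes with lincRNA peaks (red) and all 8733 genes with peaks (grey). The WT RO bar is the highest for lincRNA genes, 29.5%, while the bar for all 4 lists is the highest for all genes, 34.4%.

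The highest folds of the WT PA, KO PA and WT RO lists lay in regions present in all 4 lists. The highest of KO RO, 174 in 4933434M16Rik, lay in a region of 3 lists, and the next highest of WT RO, 449 in AC154760.1 and 258 in Gm40884, in regions of 2. In 9330102E08Rik a peak at chr6:128171759-128181925, whose 2 exon blocks span an intron, had a fold of 470 in WT RO, and its counterparts had 62.2 (WT PA), 39.6 (KO PA) and 160 (KO RO). The input counts of this gene, 1810, 1963, 1671 and 1173 (WT PA, KO PA, WT RO and KO RO, the order used from here on), stayed within a narrow range. The strongest WT PA peak was in 4932416K20Rik at chr8:104798395-104798634, with folds of 123, 33.1, 96.9 and 61.2 in the 4 lists and counts of 255, 344, 349 and 486. The strongest KO PA peak, fold 110, lay in 4933411G06Rik at chr10:51756815-51757136, a transcribed pseudogene in RefSeq, and the other lists had folds of 10.5 (WT PA), 10.1 (WT RO) and 13.1 (KO RO) in the region. The WT RO peak of 4933411G06Rik overlapped the KO PA peak by 60 bp, the KO RO peak by 1 bp and the WT PA peak by 0 bp. Gm12911 followed with a fold of 108 in KO PA, beside 12, 6.46 and 44.8 for WT PA, WT RO and KO RO. Folds move with the depth of both libraries and are set side by side here without a comparison.

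Several genes with a peak in every list were also among the most abundant. Gm21269 had 7547, 6290, 6961 and 3339 input counts and carried a peak near its end in all lists, with folds of 80.7, 32.8, 67.9 and 22.3. 4930444F02Rik had 4730, 1977, 4656 and 1383 counts and 3, 2, 3 and 2 peaks, with highest folds of 2.48, 10.7, 9.08 and 3.55. Both of its KO libraries were at 182.8 CPM or lower and both WT libraries at 403.2 or higher. 1700029M20Rik stood out through WT RO: its peak at chr4:135629689-135630138 had a fold of 171 there and 6.32, 9.02 and 15.1 in WT PA, KO PA and KO RO, and its counts were 1184, 1760, 1225 and 453. The most abundant member in every library was Gm42418, a locus overlapping a ribosomal RNA repeat, with 47717, 39892, 35599 and 50759 counts, and peaks in both WT lists alone. Without it the members took 0.762%, 0.752%, 0.963% and 0.754% of all counts of a library.

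Genes with most peaks did not have the most counts. 4930571K23Rik, protein coding in RefSeq, had 4, 10, 5 and 6 peaks with 205, 312, 448 and 791 counts, and some of these rows overlap each other. B230354K17Rik had 6, 5, 5 and 5 peaks with 520, 758, 285 and 639 counts; merged over the lists they formed 4 regions within chr17:45436304-45440962 that every list held, 1 region in 3 lists (not KO RO) and 1 in WT PA and KO RO, with highest folds of 46.4, 49.3, 114 and 83.3. Its KO RO peak at chr17:45440424-45440663 overlapped no PA peak and joined its region through the WT RO peak. AY702103 had 2, 2, 7 and 4 peaks with 311, 244, 318 and 145 counts. Its rows were thus most numerous in WT RO while its counts there were close to those in WT PA. Some of these rows overlap each other, among them both of WT PA and both of KO PA. In 3222401L13Rik, chosen after its values were seen, both WT lists held peaks, 4 and 6, and neither KO list held any, with 178, 82, 146 and 122 input counts; 5 of the 6 in WT RO missed a false discovery rate under 0.05, and some of these rows overlap. In RO the input of this gene was 11.1 CPM in KO against 12.7 in WT. In PA it was lower in KO, with 82 counts against 178 in WT. The part of input level in the lists that held its peaks was not tested.

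Of 74 names on a list of well-studied long noncoding RNAs, 7 had a peak classed as lincRNA, 9 had one under another gene class and 58 had no peak in any list. Meg3, the maternally expressed RNA of an imprinted cluster, had 1380, 749, 429 and 457 counts and was lower in WT RO than in WT PA (log2 ratio -1.65, exact interval -1.82 to -1.5). Its peak at chr12:109571366-109571606 had a fold of 29.3 in KO PA and 14.6 in KO RO. The WT RO peak there had a fold of 8.07 and a false discovery rate above 0.05, and WT PA, with the most counts, had none. The lists give peaks of Gm26906 at the same place on the opposite strand, with the same folds in the same lists. The strand of this signal is thus not resolved, and it counts under both genes here. Xist, which coats the inactive X chromosome of female cells, had 42, 116, 61 and 220 counts, higher in KO than in WT at both stages (log2 ratios 1.54 and 1.89). Its peaks at chrX:103466227-103466616 were called in WT PA and KO RO. In CPM Xist stood at 3.58, 10.7, 5.3 and 20.1. The macrophage marker Csf1r, 1 of 3 macrophage markers with a symbol, stood at 2.13, 12.3, 6.86 and 21.5 CPM. Other somatic marker sums ran otherwise. Sertoli markers summed to 239.3, 318.1, 172.1 and 198.5 CPM and Leydig markers to 136.2, 40, 41.5 and 16.7. Those of peritubular myoid and endothelial cells summed to 365.6, 358.9, 181.4 and 342.8. The part of other cell types in the Xist values was not tested.

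2900097C17Rik, the mouse counterpart of NORAD, which binds Pumilio proteins, had a peak at chr2:156392050-156392380 in both WT lists. Its width was 331 bp in WT PA, beside 481 bp in KO PA and 361 bp in KO RO. The KO RO peak had the same start and ended at chr2:156392410. The folds were 14, 50.4, 17.9 and 31.2, with counts of 395, 501, 230 and 402. Trp53cor1 (lincRNA-p21), a p53 target, had 102, 12, 60 and 24 counts and a peak in each WT list alone, with folds of 8.43 and 10.8; these do not overlap each other and both missed a false discovery rate under 0.05. Pvt1, the neighbour of Myc, had 98, 47, 52 and 109 counts and 1 WT RO peak, which missed that rate. The snoRNA host gene Snhg18 had 17, 27, 27 and 12 counts and 1 WT RO peak, which also missed it, and Dubr had 115, 44, 68 and 51 counts and 2 peaks in KO RO alone.

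Input levels of the 403 genes were then compared between genotypes and stages. A peak in any list made a gene a member, and 119 genes entered through WT RO alone. The medians and the shares past 2-fold below thus partly follow the choice of members. Genes with a peak in a list had more input than the other members in the same sample, for example a median of 11.3 CPM for the 272 genes with a WT RO peak against 5.56 for the other 131. Over all members the median was 6.05, 5.73, 8.08 and 7.03 CPM. The 119 genes with peaks in WT RO alone were highest in the WT RO library in 54 cases. The 24 with peaks in KO PA alone were highest in KO PA in 3 cases and in KO RO in 9.

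In round spermatids lincRNA peak genes were lower in KO than in WT. Of 381 genes with at least 1 CPM in either library, 60 were at least 2-fold higher and 108 at least 2-fold lower in KO, 44.1% in all, where 42.1% of all genes of the table differed by as much, 23% higher and 19% lower. The median log2 ratio was -0.37 (95% interval of the median -0.5 to -0.2), against 0.04 over all genes. With at least 10 CPM, 17 of 204 were higher and 55 lower, 35.3% against 24.6% of all genes. Scaled by library totals the median was -0.19, against 0.22 over all genes. Without the genes with peaks in WT RO alone the median was -0.26 (-0.44 to -0.09), and over genes with peaks in all 4 lists -0.47 (-0.9 to -0.17).

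In pachytene cells 78 of 369 lincRNA peak genes were at least 2-fold higher and 98 at least 2-fold lower in KO, 47.7% in all. Of all genes 43.7% differed by as much, 23.8% higher and 19.9% lower. The median was -0.18 (-0.34 to 0), against 0.04, and with at least 10 CPM 35 of 188 were higher and 47 lower, 43.6% against 26.4% of all genes. Scaling by library totals moved the median to 0.12, but all genes then had 0.35, so the members stayed 0.23 below. That scaling turned the sign of the members' median, and 106 were then at least 2-fold higher and 72 lower. Over genes with peaks in all 4 lists the median was -0.38 (-0.79 to -0.13).

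Between stages lincRNA peak genes were higher in round spermatids. In WT 121 of 371 were at least 2-fold higher and 34 at least 2-fold lower in RO, 41.8% in all against 40.2% of all genes, of which 21.6% were higher and 18.7% lower; the median was 0.54 (0.33 to 0.63) against 0.01. In KO 76 of 371 were higher and 40 lower, 31.3% in all against 32.7%, of which 17.5% were higher and 15.2% lower; the median was 0.27 (0.16 to 0.4) against 0.01. With at least 10 CPM, 62 were higher and 8 lower of 196 in WT, 35.7% against 21.2% of all genes, and 28 higher and 9 lower of 184 in KO, 20.1% against 10.9%. Without the genes with peaks in WT RO alone the medians were 0.48 in WT (0.27 to 0.61) and 0.24 in KO (0.11 to 0.47). Over the genes with peaks in all 4 lists they were 0.1 in WT (-0.09 to 0.5) and 0.03 in KO (-0.21 to 0.23). The 4 comparisons share libraries and are not independent of each other.

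**Figure D4:**
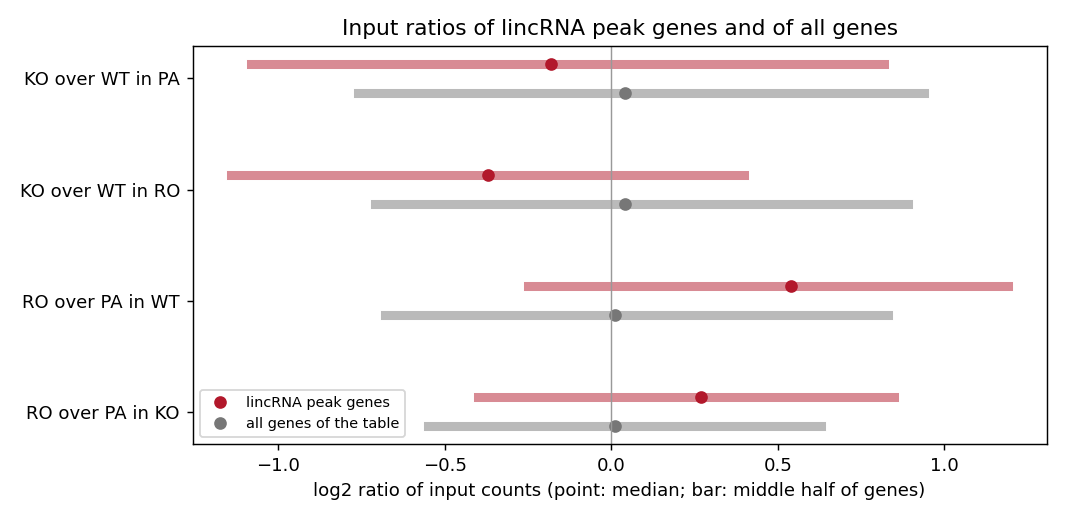
Points are median log2 ratios of input counts and bars the range from the lower to the upper quartile, for lincRNA peak genes (red) and all genes (grey) with at least 1 CPM in either library. The red points lie left of the grey for KO over WT (-0.18 and -0.37) and right of it for RO over PA (0.54 and 0.27).

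The genotype ratios were also taken by which list held the peak. Genes with a peak had more input in the same sample, so this grouping and the ratios are not independent. Of genes with an RO peak in WT alone, 155 with enough input had a median log2 KO over WT of -0.68 (-0.85 to -0.49) in RO. Those with a peak in KO alone had -0.03 (-0.3 to 0.36, 81 genes) and those with a peak in both -0.28 (-0.58 to -0.07, 100 genes). In PA the medians were -0.86 (-1.24 to -0.08, 45 genes), 0.48 (-0.16 to 0.82, 88 genes) and -0.44 (-0.85 to -0.2, 90 genes) for WT alone, KO alone and both. Both medians of genes with a peak in WT alone thus lay below 0, while the intervals for a peak in KO alone held 0.

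Across the 221 genes with at least 10 CPM in some library, KO over WT ratios in PA and in RO went together, with Pearson's r of 0.63 and Spearman's rho of 0.6 over genes, against 0.52 and 0.53 over all 13677 genes under the same filter. The ratios use separate libraries, and genes are not independent replicates. In 30 genes both WT libraries were at least 2-fold above both KO libraries, 13.6% against 4.19% of all genes, and in 9 both KO libraries were at least 2-fold above both WT libraries, 4.07% against 3.41%. Both RO libraries were at least 2-fold above both PA libraries in 11 genes, 4.98% against 0.877% of all genes. Both PA libraries were so above both RO libraries in 2 genes, 0.905% against 0.687%. Peaks went with more input, so these shares partly follow the choice of members, as the medians do. How large that part is was not tested. Of the genes higher in WT, C920006O11Rik, 4930437M23Rik, 5730422E09Rik, Gm6639, Gm12128, Gm31904, Gm35256, 4930524O08Rik, Gm11635 and 4921539H07Rik entered through WT RO alone. Gm40884, AI838599, 4933411E06Rik and 4930555A03Rik entered through both WT lists alone. Of those higher in KO, 4930412B13Rik entered through KO RO alone. Of those higher in RO, 4921521D15Rik, A430105J06Rik, Gm31752 and AC127597.1 entered through WT RO alone and 1700120G07Rik through KO RO alone.

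**Figure D5:**
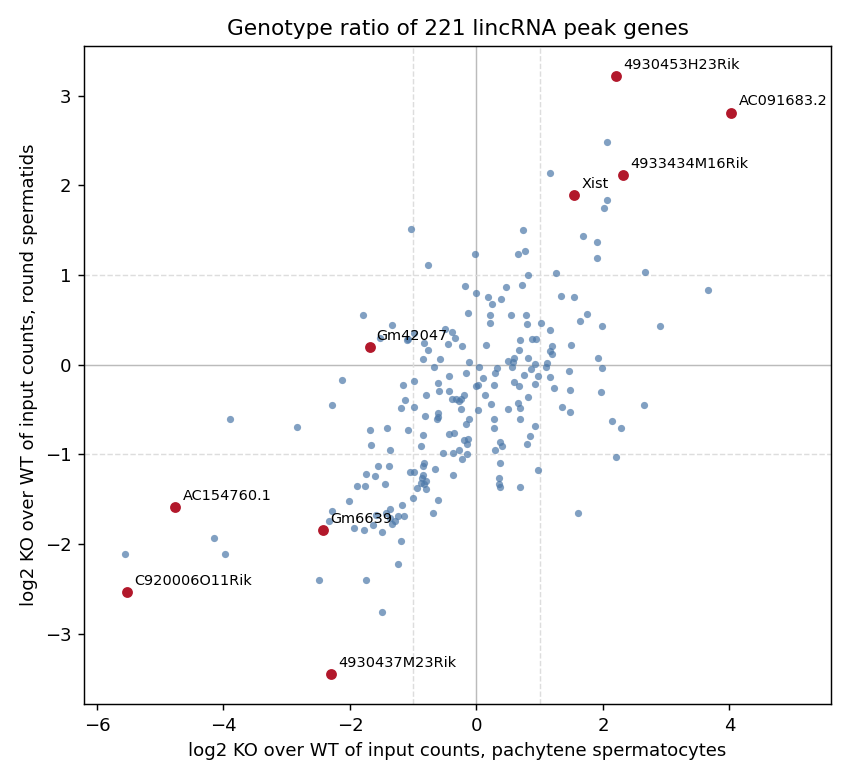
Each point is 1 of the 221 lincRNA peak genes with at least 10 CPM in some library, with its log2 KO over WT ratio of input counts in pachytene spermatocytes (horizontal) and round spermatids (vertical); dashed lines mark 2-fold. Points run from C920006O11Rik at the lower left (-5.53 and -2.53) to AC091683.2 at the upper right (4.03 and 2.81).

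The most abundant genes that separated the genotypes at both stages were lower in KO. Gm6639 had 4347, 748, 3236 and 860 counts, with log2 KO over WT of -2.42 (-2.54 to -2.31) in PA and -1.84 (-1.95 to -1.73) in RO, and its only peak was in WT RO at chr3:35628902-35629795 with a fold of 11.3. Gm26799, with 4471, 1079, 3782 and 1016 counts, kept a peak at chr6:112704018-112704402 in KO RO with a fold of 4.3, beside 5.04 in WT RO. 4933406C10Rik had 3138, 1023, 4054 and 1060 counts and a peak at chr12:32919892-32920101 in WT PA that recurred in all lists, with folds of 9.62, 25.6, 7.7 and 12.9. These genes show that a lower KO input went both with and without a KO peak.

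By rank of the PA and RO ratios the lowest included C920006O11Rik, with 394, 6, 246 and 39 counts and 1 WT RO peak, and 4930437M23Rik, with 152, 27, 319 and 26 counts and 1 WT RO peak at chr5:11485394-11486558. Gm40884, with 170, 7, 110 and 26 counts, had peaks in both WT lists alone, of folds 66.4 and 258. AC154760.1 had 143, 3, 39 and 11 counts, a KO over WT ratio in PA of 0.0228 (log2 interval -7.75 to -3.88), and carried a peak of fold 449 in WT RO but also 1 of fold 16.9 in KO PA, where it had 3 input counts. Gm26711 had 19, 1, 68 and 1 counts, a KO over WT ratio in RO of 0.0155 (log2 interval -11.34 to -3.49), and its peaks were in both KO lists alone, with folds of 8.65 and 18.1. AC122210.1, with 397, 89, 344 and 113 counts, likewise had peaks in both KO lists alone.

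Genes higher in KO at both stages were led by AC091683.2, with 165, 2508, 351 and 2356 counts and log2 ratios of 4.03 (3.82 to 4.28) in PA and 2.81 (2.66 to 2.98) in RO. Its KO peaks had folds between 2.46 and 3.89, and its WT RO peak, at chr13:49970001-49973337, 28.1. 4930453H23Rik, an X-linked transcribed pseudogene in RefSeq, had 49, 215, 35 and 326 counts and the same peak, chrX:21206787-21207054, in both KO lists alone. 4933434M16Rik had 40, 191, 50 and 212 counts, and its peak in the KO lists, chr11:112825243-112826189 in KO PA, was wider (947 and 711 bp) than that in WT RO (267 bp). BC061195, also X-linked, had 1, 31, 11 and 77 counts and 1 KO PA peak.

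By stage, Gm42047 had the lowest RO over PA in WT, with 1171, 334, 93 and 102 counts and log2 RO over PA of -3.6 (-3.95 to -3.32) in WT and -1.71 (-2.06 to -1.41) in KO. Its peaks, at chr8:121836811-121837050 in WT PA and nearby, were in both PA lists alone. In the other direction AC127597.1, named after its values were seen, had 309, 425, 935 and 875 counts and 1 WT RO peak. AC164436.1 had 27, 129, 289 and 169 counts and a log2 RO over PA of 3.35 (2.88 to 4.07) in WT, while in KO it was 0.37 (0.03 to 0.71), and its only peak was in KO RO. AC154314.2 and 4933416O17Rik likewise stood apart through a low WT PA library, with 19 and 6 counts there and 164 and 76 in WT RO, and both had peaks in both KO lists alone.

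Some genes with a peak had few or no counts in the input library of the same name. Of the 272 genes with a WT RO lincRNA peak, 20 had 3 or fewer input counts in WT RO (7.35%, 4.81 to 11.1), 14 of them none, against 3.31% of other genes with a peak in that list. In KO PA 16 of 190 did (8.42%, 5.25 to 13.2), against 2.43%, in WT PA 9 of 144 (6.25%), against 2.67%, and in KO RO 9 of 184 (4.89%), against 2.3%. Gm36849, for instance, had 29, 0, 165 and 103 counts and a KO PA peak of fold 9.78, and AC159890.1 had 96, 0, 161 and 34 counts and peaks in WT PA, KO PA and KO RO. The counting tool and its treatment of overlapping genes and strand are not given in the sources used here. A count of 0 for a gene therefore need not mean that no input read lay under its peak.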

How the data were processed

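Each peak list was named by genotype and stage in its file name and compared with the labels' titles; samples were grouped by title. Per the file headers, the deposited lists give for each peak a p-value, scores (log10 of the p-value and of the false discovery rate) and a fold, the authors' ratio of immunoprecipitated over input signal, with exon blocks, strand, gene class and symbol. The authors also deposited a gene table of whole-number counts for the 4 input libraries, not normalized. The submitters' processing notes name cutadapt 2.5, HISAT2 2.1.0, HOMER 4.10.4 and mm10 without their roles; the peak caller, counter, annotation and strand setting are not given in the sources used here.

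Scaling of counts used edgeR's TMM (version 4.0.16, R 4.3.3), with factors of 0.892, 1.09, 0.953 and 1.08 for WT PA, KO PA, WT RO and KO RO. Log2 ratios used a prior count of 2. For a gene with 1 to 3 counts in 1 library the ratio without a prior count is given with its exact interval. Shares have Wilson, their differences Newcombe and ratios exact 95% intervals. With 1 library per group there was no test: the share of all genes past 2-fold stands beside each count. Overlaps (Python 3.11.15, pandas 2.3.3) were checked against bedtools 2.31.1, and ratios were checked on simulated data. Named genes were the 3 highest folds per list, the 8 most abundant genes with peaks in all lists, the 4 highest and lowest ratios per comparison (at least 5 CPM, no count of 0), the 3 highest folds in both lists of a genotype or stage alone, the 3 with most peaks, the known RNAs and the most abundant; the other genes named among those separating the genotypes, with few counts or with printed sequence were chosen after their values were seen. Members and lists were chosen with earlier results of these data known. No counts of immunoprecipitated libraries were used here.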

Additional observations from a re-analysis of the deposited data

Results flagged for a closer look

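The KO over WT ratio of lincRNA peak numbers was above 1 in PA (1.26) and below 1 in RO (0.638). The difference between the stages was not tested, since each rests on 1 pair of lists.

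Several genes went opposite ways under the same contrast, also untested, with 1 library each. C130073E24Rik had log2 KO over WT of 4.04 in PA and -1.45 in RO, and RO over PA of 2.09 in WT and -3.40 in KO; its counts were 2, 60, 15 and 4 in WT PA, KO PA, WT RO and KO RO. 4930432O09Rik had KO over WT of -1.87 in PA and 1.04 in RO, with 49, 11, 41 and 82 counts. RO over PA was -1.79 in WT and 1.38 in KO for AC154760.1, -1.51 and 1.43 for Gm26734 (65, 1, 21 and 6 counts) and -1.06 and 2.37 for CT030684.3 (15, 13, 6 and 76 counts). Where a library has 3 counts or fewer the log2 value depends on the prior count. Without one, the KO over WT ratio in PA was 32.5 for C130073E24Rik (log2 interval 3.11 to 8.10) and 0.0167 for Gm26734 (log2 interval -11.23 to -3.38).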

How the results depend on the processing

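No paired analysis was possible because each group has 1 library. Over all results that answer a comparison, 155 values under an alternative stayed within the main value's interval (for counts, within 1.5 times), 47 moved; none whose main interval left out 0 (for ratios, 1) changed sign; for single named genes 1017 stayed and 39 moved. Neither Malat1 and Neat1 kept in, either strand, DESeq2 size factors nor prior counts of 0.5 and 5 moved any of the former. At a false discovery rate under 0.05 the RO KO over WT ratio of peak numbers was 0.768, the WT RO width 233.5 bp, its fold 17.1 and its overlap with KO RO 36.8%. At a fold of at least 5 the KO PA and KO RO folds were 13.3 and 13.4 and the overlap of KO PA with KO RO 55.3%. By genes, the shares were 3.06% (WT PA), 3.12% (KO PA), 4.69% (WT RO) and 3.3% (KO RO). By genomic span, widths were 241 (KO PA), 211 (WT RO) and 238 bp (KO RO). With a reciprocal overlap of 50% the shared peaks were 49.5% (WT PA in KO PA), 39.2% (KO PA in WT PA), 21.9% (WT RO in KO RO), 34.4% (KO RO in WT RO), 40.5% (WT PA in WT RO), 21.6% (WT RO in WT PA), 55% (KO PA in KO RO) and 58.1% (KO RO in KO PA). Counting any peak of the gene they were 70%, 56.2%, 45.2%, 60.4%, 71.1%, 44.7%, 71.7% and 74% in that order. At 100 bp they were 25.3% (WT RO in KO RO), 40.1% (KO RO in WT RO) and 48.4% (WT PA in WT RO). Library totals gave medians of 0.12 (PA) and -0.19 (RO) for KO over WT; in PA the sign turned from the main -0.18 (-0.34 to 0), with 106 genes higher and 72 lower in place of 78 and 98. At 10 CPM, with fewer genes, 82, 72, 70 and 37 genes were 2-fold apart (KO over WT in PA and RO, RO over PA in WT and KO). Chosen after seeing the data, the genes with peaks in all 4 lists gave 21, 26, 11 and 10, with medians of -0.38 (PA), 0.10 (WT) and 0.03 (KO), and leaving out genes of WT RO alone gave 76 for RO over PA in KO. The cause of these changes was not tested where fewer genes or a looser rule do not show it. Depth limits genes near 3 counts, whose ratios have wide counting intervals.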

Other observations

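The authors' fold takes few values. In WT RO 423 peaks share the fold 9.42, and 71 values, each borne by at least 20 peaks of that list, cover 73% of its lincRNA peaks (68.2 to 77.4) against 63.9% of its other peaks. The shares were 64.7% against 53.3% in WT PA, 64.2% against 54.6% in KO PA and 56.4% against 49.6% in KO RO. LincRNA peaks with such a repeated fold were narrower, with a median width of 180 bp against 269 bp for the rest of the lincRNA peaks in WT RO.

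The first 50 bases of 4930579C12Rik on chromosome 9, where a WT RO peak starts, differ by 6 edits from those of Gm29825 on the same chromosome, where another WT RO peak starts; the next closest of the pairs of such starts is 24 edits apart. How reads shared by such copies were assigned is not given in the sources used here.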
